A study of Homo sapiens with 6 samples.

Results

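Iron enters, is stored in and leaves a cell through a small set of proteins, and 10 genes for them were examined in MV4-11 cells, a human acute myeloid leukemia (AML) line that carries the *FLT3*-ITD mutation. The genes were *FTL*, *FTH1*, *NCOA4* and *PCBP1* for storage, *TFRC*, *STEAP3* and *SLC11A2* for uptake, *SLC40A1* and *HMOX1* for release, and *IREB2* for control. They were chosen by symbol, and all 10 were found among the 61806 Ensembl genes of the count table. RNA was sequenced in 3 libraries with a control shRNA (shNC 1 to 3, the controls) and in 3 labelled for knockdown of *ATGL* (shATGL 1 to 3), the gene that is named *PNPLA2* in the annotation and encodes a triglyceride lipase. The study describes stable lentiviral transduction with selection by puromycin, and more than 1 shRNA against *ATGL*, but the labels do not say which shRNA each library carried, or whether the libraries came from separate cultures. The p-values therefore measure only the spread between these libraries, which may be technical.

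In most cells iron arrives bound to transferrin, which is taken up by the transferrin receptor (TFRC). In the endosome it is reduced by STEAP3 and carried into the cytosol by DMT1, the product of *SLC11A2*. Chaperones such as PCBP1 pass it to ferritin, a shell built of light (FTL) and heavy (FTH1) chains. NCOA4 delivers ferritin to the lysosome, which frees the iron again, ferroportin (SLC40A1) is the exporter of the cell, and HMOX1 frees iron from haem. Iron regulatory proteins, one of which is the product of *IREB2*, bind a hairpin in mRNA, the iron-responsive element, when iron is scarce. In the 5' UTR the bound element blocks translation, and in the 3' UTR of *TFRC* it protects the mRNA from decay, so that storage and uptake move in opposite directions. Ferrous iron is also a reactant in lipid peroxidation and thereby in ferroptosis, the form of cell death that the study investigated.

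The elements of the members are printed here because they tie the storage, release and uptake genes to the same control. A search of the GENCODE 29 transcripts for the loop CAGTGN, closed by 5 base pairs (G-U pairs allowed) and preceded by a bulged C, matched 4 of the 10 members, against 243 of 13687 protein-coding genes tested (1.78%). A match anywhere in a protein-coding transcript was enough for either count. The pattern was set beforehand as that of the known element, so the counts are a description and not a test. The capitals mark the loop, the sequences run 5' to 3' along the mRNA, and the GRCh38 coordinates run from the bulged C to the last paired base.
*FTL*, 5' UTR, plus strand, chr19:48965341-48965357: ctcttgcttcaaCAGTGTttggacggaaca
*FTH1*, 5' UTR, minus strand, chr11:61967580-61967596: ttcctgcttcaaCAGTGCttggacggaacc
*SLC40A1*, 5' UTR, minus strand, chr2:189580667-189580683: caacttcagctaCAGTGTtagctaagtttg
*TFRC*, 3' UTR, minus strand, chr3:196050985-196051001: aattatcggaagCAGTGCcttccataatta
*TFRC*, 3' UTR, minus strand, chr3:196050581-196050597: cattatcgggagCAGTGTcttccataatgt
*TFRC*, 3' UTR, minus strand, chr3:196050516-196050532: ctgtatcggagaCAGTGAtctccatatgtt
*TFRC*, 3' UTR, minus strand, chr3:196050469-196050485: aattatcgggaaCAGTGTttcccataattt
The windows of *FTL* and *FTH1* had the same letter at 26 of 30 positions. The 4 windows of *TFRC* matched each other at 19 to 25 of 30 positions, and matched those of the ferritin chains at 9 to 13. In the remaining 6 members these letters were not found, which says only that this exact pattern was not in the transcripts searched.

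The count of the targeted gene did not separate the groups. *PNPLA2* (ENSG00000177666) had 102 ± 5.10 CPM (SD, n = 3; CPM are counts per 1000000 counts of the library, with its size scaled by TMM) in shNC and 101 ± 2.96 in shATGL, a log2 fold change of -0.01 (edgeR adjusted p = 0.979), so the groups are named below by their labels only. The total counts were 59674064 to 74808280 per library, and 19149 genes had enough counts to be tested. Replicates were compared by a chi-square per degree of freedom over genes. It was 11.3 to 26.2 within shNC and 12.3 between shATGL 1 and shATGL 2, but 84.0 and 87.6 between shATGL 3 and the other shATGL libraries, so shATGL 3 stood apart and results are also given without it. The libraries also differed in how counts depended on the length of the exons of a gene. Spearman's rho between the deviation of a gene from its mean and its exonic length was 0.20 and 0.21 in shATGL 1 and 2, -0.06 in shATGL 3, and -0.10, -0.04 and -0.28 in the controls. Values corrected for length and GC content are therefore given beside the counted ones. All 8 markers of a myeloid leukaemia were above the filter, with summed levels of 1270 to 1320 CPM in shNC and 1220 to 1250 in shATGL. Of 12 erythroid markers, a cell type that handles much iron, 1 (*EPOR*) was above the filter and 7 were at 0 in every library, with sums of 15.3 to 16.1 CPM in shNC and 11.9 to 14.7 in shATGL.

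None of the 10 members met the call rule, an edgeR adjusted p under 0.05 together with a change of at least 2-fold, which 1 of the 19149 genes met (0.00522%). *FTL* was lower in shATGL at an unadjusted p under 0.05, which makes 1 of 10 members, while 11.7% of all genes tested passed that threshold. Among all genes, 5.77% passed it as higher and 5.94% as lower. Of the members, 3 were higher and 7 lower at any p, and 48.1% of all genes were lower. The median log2 fold change was -0.06 over the members and 0.01 over all genes, or -0.04 and -0.02 after the correction for length and GC content. By level, the members ranged from *FTL*, which ranked 12 of the 19149 genes in mean CPM, to *HMOX1* at 2.20 to 3.10 CPM.

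**Figure D1:**
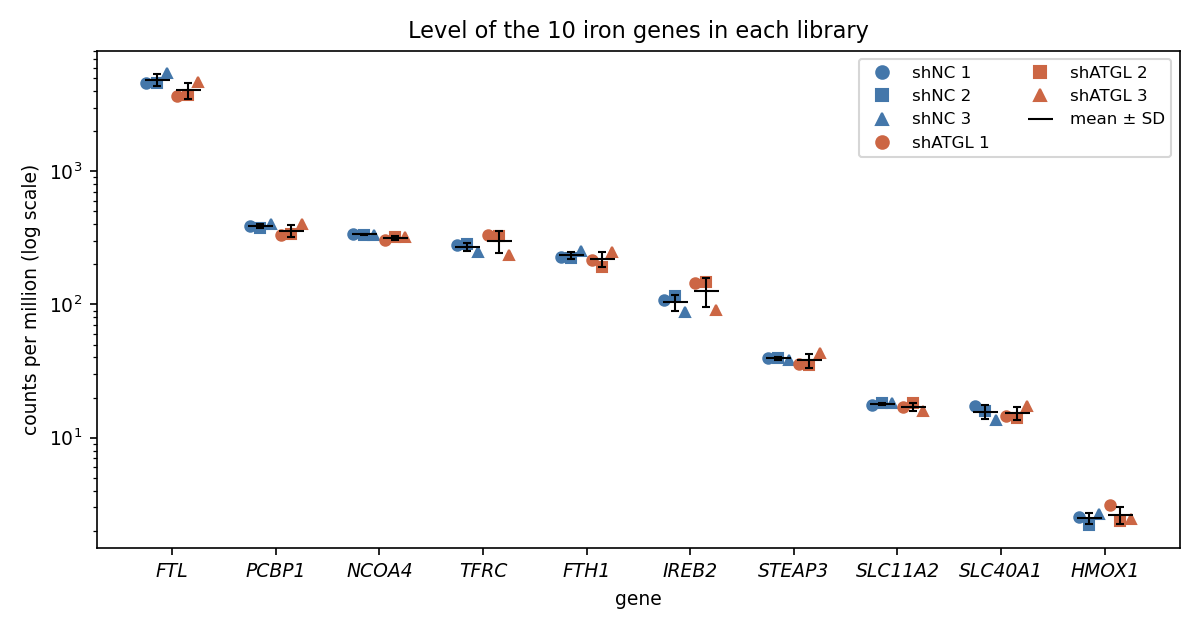
Level of the 10 genes in CPM (log axis), with 1 point per library, colour for the group and shape for the replicate, and bars for the mean ± SD of 3 libraries. *FTL* lies above all other members in every library, and only for *NCOA4* are all shATGL points below all shNC points.

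*FTL* (ENSG00000087086, chr19:48965301-48966878, plus strand, GRCh38) encodes the light chain of ferritin. It was at 4588, 4608 and 5435 CPM in the controls, against 3696, 3742 and 4683 CPM in shATGL 1, 2 and 3. The groups overlapped, because shATGL 3 lay above shNC 1 and shNC 2. The means were 4877 ± 483 and 4040 ± 557 CPM, a log2 fold change of -0.27 (SE 0.11, 95% confidence interval -0.53 to -0.02, edgeR unadjusted p = 0.0393, adjusted p = 0.411), and the exact two-sided permutation test gave p = 0.3. With 3 against 3 libraries, that test cannot go below 0.1. The shATGL level was thus 82.8% of that in shNC, with an interval of 69.5% to 98.8%. Without shATGL 3 the difference was -0.39 (edgeR adjusted p = 0.0161), in a fit in which 28.8% of all genes had an unadjusted p under 0.05. After the correction for length and GC content it was -0.15 (edgeR unadjusted p = 0.0361, adjusted p = 0.371). In that fit 12.5% of all genes had an unadjusted p under 0.05. In bulk RNA, fewer cells of a kind and less RNA per cell cannot be told apart, here and in the results that follow. At 273971 to 385360 counts per library, or 0.380% to 0.522% of the total, counting error was small beside the spread between libraries.

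*FTH1* (ENSG00000167996, chr11:61959718-61967660, minus strand) encodes the heavy chain, which oxidises iron for storage. Its level was 228, 224 and 251 CPM in the controls, against 215, 193 and 250 CPM in shATGL 1, 2 and 3. shATGL 3 again lay with the highest control, and the groups overlapped. The means were 234 ± 14.8 and 219 ± 28.7 CPM, with a log2 fold change of -0.10 (SE 0.10, interval -0.33 to 0.14, edgeR adjusted p = 0.712), and 0.00 after the correction. The exact permutation p was 0.4. Without shATGL 3 the difference was -0.20 (edgeR unadjusted p = 0.0213, adjusted p = 0.0994), and without shATGL 2 it was -0.01.

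Per kilobase of exon, *FTL* was far above *FTH1*. The ratio of *FTL* to *FTH1* was 46.5, 47.7 and 50.1 in the controls, against 39.7, 44.9 and 43.4 in shATGL 1, 2 and 3, so every shATGL library was below every control. This comparison was chosen after its values were seen. The means were 48.1 ± 1.80 and 42.7 ± 2.66, a difference of -0.17 on the log2 scale, with p = 0.1 in the exact two-sided permutation test, the smallest it can give. After the correction for length and GC content the groups still did not overlap, at 47.1 to 48.5 in shNC and 40.1 to 45.5 in shATGL, and the log2 difference was -0.15. The size of the ratio depends on the length used for each gene. It was 45.4 over all 6 libraries with the union of exons, and 27.5 with the length of the principal transcripts, which leaves the comparison between libraries as it is. Processed pseudogenes of the ferritin chains held few counts, with sums of 0.107% to 0.148% of the *FTL* counts in 16 rows and 0.610% to 0.936% of the *FTH1* counts in 25 rows. Reads shared between the genes and these copies could have been assigned to either. *BEST1*, which overlaps *FTH1*, had 991 to 1360 counts per library, and the strand setting of the counting is not known.

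*NCOA4* (ENSG00000266412, chr10:46005088-46030714, minus strand), the receptor that takes ferritin to the lysosome, was the only member whose groups did not overlap. Its level was 339, 335 and 334 CPM in the controls, against 303, 319 and 322 CPM in shATGL 1, 2 and 3. Groups that do not overlap, with shATGL lower, were found for 9.38% of all genes, so 1 of 10 members is near that background. No member had groups apart with shATGL higher, which 7.93% of all genes had. The means were 336 ± 2.89 and 315 ± 10.2 CPM, with a log2 fold change of -0.09 (SE 0.05, interval -0.22 to 0.03, edgeR adjusted p = 0.501) and an exact permutation p of 0.1. The corrected value was -0.11, and the value without shATGL 3 was also -0.11.

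*PCBP1* (ENSG00000169564, chr2:70087454-70089203, plus strand), the chaperone that hands iron to ferritin, was the second most abundant member per kilobase. It was at 388, 375 and 403 CPM in the controls, against 334, 341 and 400 CPM in shATGL 1, 2 and 3. The first and second shATGL libraries were below all controls, and shATGL 3 was within them. The log2 fold change was -0.12 (SE 0.08, edgeR adjusted p = 0.562), and -0.03 after the correction. Without shATGL 3 it was -0.21 (edgeR adjusted p = 0.0290). *PCBP1-AS1*, which overlaps it, had 610 to 1036 counts per library.

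*TFRC* (ENSG00000072274, chr3:196027183-196082189, minus strand), the receptor for transferrin, moved the other way in the same libraries. It was at 280, 283 and 250 CPM in the controls, against 333, 329 and 235 CPM in shATGL 1, 2 and 3. The 3 controls lay between the lowest and the highest shATGL library. The means were 271 ± 18.2 and 299 ± 55.3 CPM, with a log2 fold change of 0.14 (SE 0.13, interval -0.16 to 0.45, edgeR adjusted p = 0.676) and an exact permutation p of 0.6. Without shATGL 3 the difference was 0.29 (edgeR adjusted p = 0.0226), and after the correction for length and GC content it was 0.00 over all 6 libraries.

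*STEAP3* (ENSG00000115107, chr2:119223831-119265652, plus strand), the endosomal reductase, was at 38.3 to 40.0 CPM in shNC and 35.2 to 43.4 CPM in shATGL, with a log2 fold change of -0.05 (SE 0.10, edgeR adjusted p = 0.865). *SLC11A2* (ENSG00000110911, chr12:50979401-51028566, minus strand), which encodes the carrier DMT1, was at 17.7 to 18.2 CPM in shNC and 15.8 to 18.4 CPM in shATGL, with a log2 fold change of -0.08 (SE 0.09, edgeR adjusted p = 0.756). The shATGL libraries spanned the control range in both genes. After the correction *SLC11A2* had a value of -0.22 (edgeR unadjusted p = 0.0388, adjusted p = 0.377), while the uncorrected difference was within its error. Without shATGL 3 the differences were -0.15 for *STEAP3* (edgeR adjusted p = 0.14) and -0.03 for *SLC11A2*.

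*SLC40A1* (ENSG00000138449, chr2:189560579-189583758, minus strand), the iron exporter, was at 17.3, 15.9 and 13.6 CPM in the controls, against 14.4, 14.1 and 17.3 CPM in shATGL 1, 2 and 3. Its highest values were in 1 library of each group, and the log2 fold change was -0.03 (SE 0.13, edgeR adjusted p = 0.949). The sign of this value changed with the library left out. *HMOX1* (ENSG00000100292, chr22:35380361-35394214, plus strand), the inducible haem oxygenase and a target of NRF2, was the least abundant member. It was at 2.55, 2.20 and 2.67 CPM in the controls, against 3.10, 2.38 and 2.45 CPM in shATGL 1, 2 and 3, from 131 to 230 counts per library. Its log2 fold change was 0.09 (SE 0.18, edgeR adjusted p = 0.855), and only shATGL 1 was above the control range. Without shATGL 3 the differences were -0.13 for *SLC40A1* and 0.14 for *HMOX1*.

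*IREB2* (ENSG00000136381, chr15:78437431-78501456, plus strand) encodes an iron regulatory protein that is degraded when iron is plentiful. Its mRNA was at 108, 116 and 88.3 CPM in the controls, against 144, 147 and 90.7 CPM in shATGL 1, 2 and 3. The first and second shATGL libraries were above all controls, and shATGL 3 was near the lowest control. The means were 104 ± 14.5 and 127 ± 31.6 CPM, with a log2 fold change of 0.29 (SE 0.19, interval -0.15 to 0.73, edgeR adjusted p = 0.557). Without shATGL 3 it was 0.48 (edgeR adjusted p = 0.0244), and after the correction for length and GC content 0.05. Of all members *IREB2* has the longest exons and *FTL* the shortest. Across the 10 members Spearman's rho between log2 fold change and exonic length was 0.782, given as a description, since genes are not independent replicates. Over the 18566 genes with a length it was 0.194, and -0.077 after the correction.

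**Figure D2:**
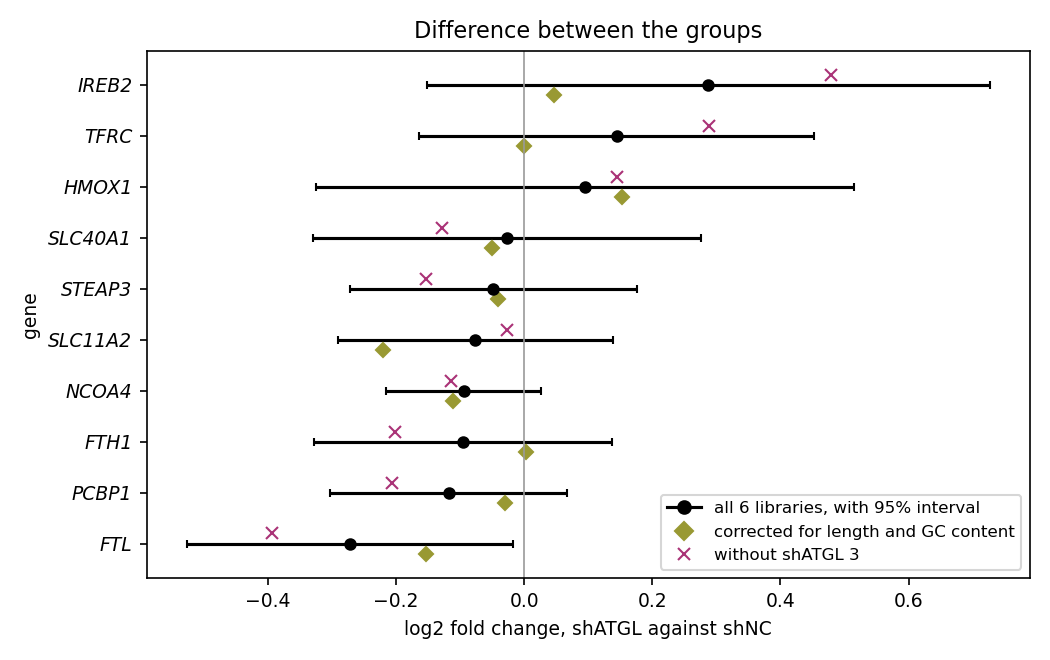
Log2 fold change of each gene, shATGL against shNC, from the edgeR fit of all 6 libraries with its 95% confidence interval (black), after correction for length and GC content (diamonds) and without shATGL 3 (crosses). *IREB2* runs from 0.48 without shATGL 3 to 0.05 after the correction, and the interval of *FTL* alone lies below 0.

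The order of the levels was followed per kilobase of exon. *FTL* had 5078 CPM per kilobase on average over the 6 libraries, *PCBP1* 213, *FTH1* 112, *NCOA4* 79.8 and *TFRC* 36.1. Then came *IREB2* with 10.7, *STEAP3* with 8.48, *SLC40A1* with 3.56, *SLC11A2* with 1.73 and *HMOX1* with 1.06. Only *IREB2* and *STEAP3* overlapped as neighbours in that order, at 8.17 to 13.6 and 7.72 to 9.50 CPM per kilobase. Per kilobase, the storage genes were thus above the uptake genes in this line, while in CPM *TFRC* (mean 285) was above *FTH1* (227). The exporter, the uptake gene *SLC11A2* and *HMOX1* were at the bottom.

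Ferritin mRNA was then set against *TFRC* mRNA within each library, which needs no library size. The element in the 5' UTR of the ferritin chains acts on translation, as given above. The mRNA levels compared here therefore do not measure that control of ferritin, and its state was not tested. The ratio of the summed CPM of *FTL* and *FTH1* to the CPM of *TFRC*, not per length, was 17.2, 17.1 and 22.8 in the controls, against 11.7, 11.96 and 20.96 in shATGL 1, 2 and 3. The first and second shATGL libraries had the lowest ratios, and shATGL 3 was between the controls. The means were 19.0 ± 3.24 and 14.9 ± 5.26, with a difference of -0.40 in the mean log2 ratio and p = 0.3 in the exact two-sided permutation test. The difference was -0.67 without shATGL 3, and -0.14 after the correction for length and GC content.

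Over the 6 libraries, the mRNA levels of ferritin and *TFRC* ran in opposite directions on the log2(CPM + 1) scale, with the same limit as for the ratio. Pearson's r was -0.883 (exact permutation p = 0.0403) and Spearman's rho -0.886 (exact permutation p = 0.0333). In the family of 4 relations the adjusted p-values were 0.0417 for r and 0.0333 for rho. The sum was mostly *FTL* (mean 4459 CPM, against 227 for *FTH1*), so its relation largely repeats that of *FTL* in this family. Without shATGL 1 and shATGL 2, the libraries farthest from the median of ferritin, r was -0.453 (n = 4, exact permutation p = 0.75), so the relation of the sum rested on those libraries. After the correction r was -0.620 (exact permutation p = 0.197). *FTL* alone gave r = -0.878 with *TFRC* (exact permutation p = 0.0417; -0.429 without the same libraries), and *FTL* with *FTH1* gave r = 0.858 (exact permutation p = 0.025; 0.680 without them). *FTH1* with *TFRC* gave r = -0.913 (exact permutation p = 0.0153), and -0.970 without shNC 3 and shATGL 2, the libraries farthest from its own median. The corrected r of these relations were -0.608, 0.481 and -0.651, with exact permutation p-values of 0.208, 0.344 and 0.157. The relations were computed over both groups together, since 3 libraries are too few for a value within a group.

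**Figure D3:**
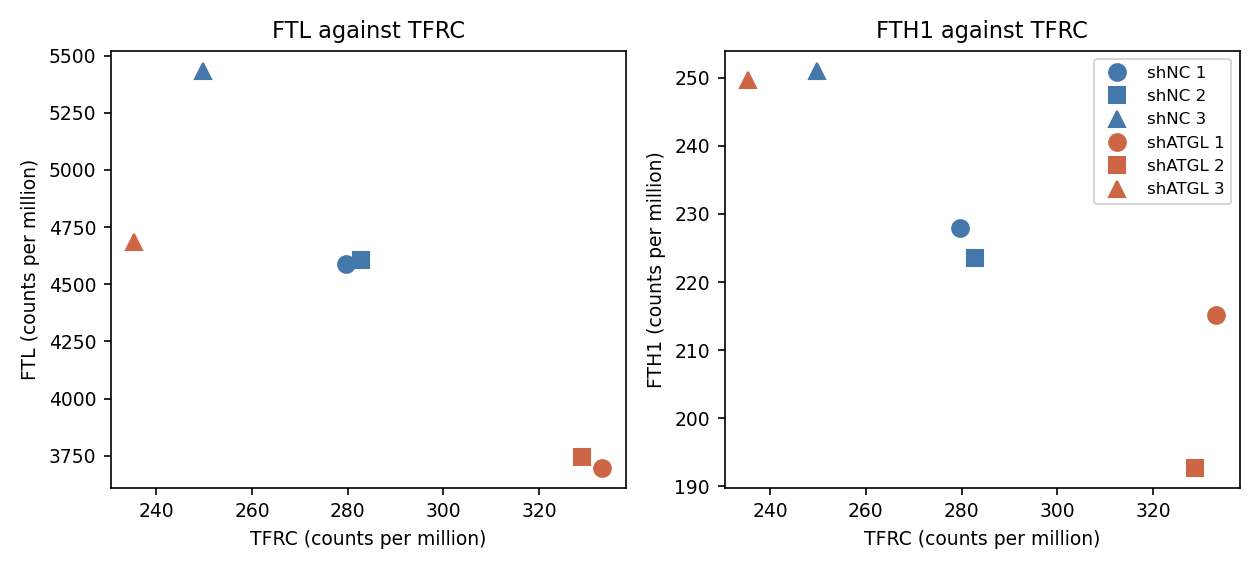
*FTL* (left) and *FTH1* (right) against *TFRC* in CPM, with 1 point per library. shATGL 1 and 2 lie at the lower right of both panels, with *TFRC* at 333 and 329. shATGL 3 and shNC 3 lie at the left, with *TFRC* at 235 and 250. For *FTH1* they are together at the top, while for *FTL* shATGL 3 (4683) lies below shNC 3 (5435).

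The same libraries were apart in other members. Between *TFRC* and *IREB2* r was 0.980, between *IREB2* and *PCBP1* -0.976, between *TFRC* and *PCBP1* -0.959 and between *FTL* and *PCBP1* 0.948, each over the 6 libraries and as a description. Among 9296 other genes with a mean of at least 10 CPM, the genes most like *FTL* were *GAPDH* (r = 0.999), *TMPO-AS1* (0.999) and *ENO1* (0.999), and 9.98% of the genes had r over 0.95 with it. *GAPDH* and *ENO1* are abundant glycolytic enzymes. Most like *TFRC* were *TRMT1L* (r = 0.9997), *CCDC47* (0.999) and *ZNF189* (0.999), and 9.06% of the genes had r over 0.95. The pattern of *FTL* and of *TFRC* over the libraries was therefore one that many genes shared, and these libraries also differed in the trend with length given above.

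**Figure D4:**
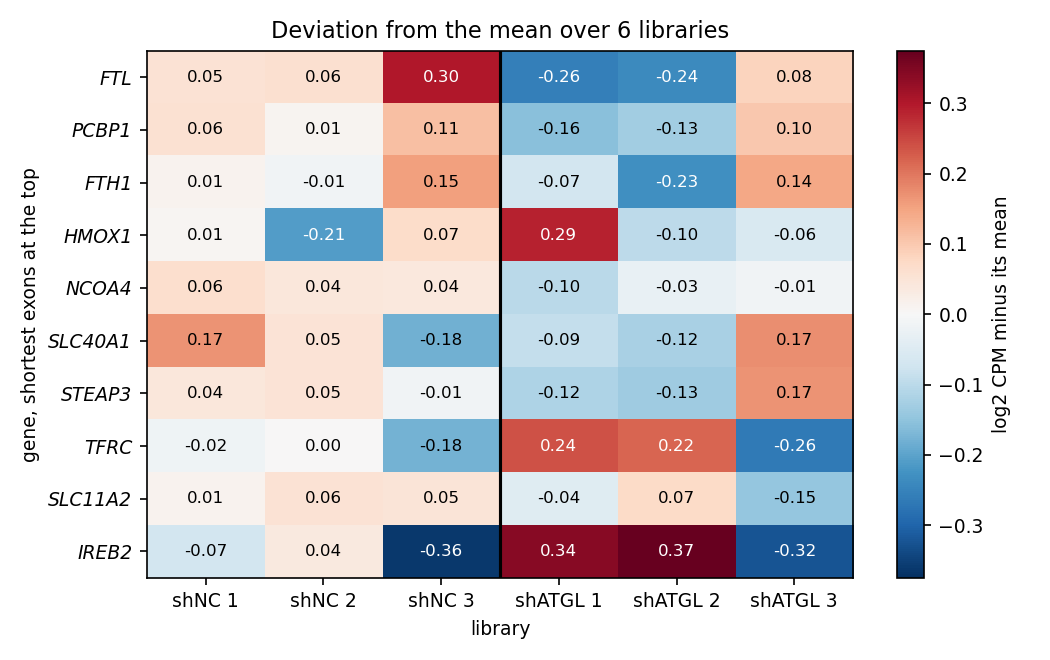
Deviation of each gene from its mean log2 CPM over the 6 libraries (colour and numbers), with genes ordered by exonic length and a line between the groups. *FTL* and *IREB2* have opposite signs in every library except shNC 2, from 0.30 and -0.36 in shNC 3 to -0.24 and 0.37 in shATGL 2.

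Other genes of the pathway were taken from 6 lists of 99 genes, of which 86 were tested. None had an edgeR adjusted p under 0.05, and the smallest was 0.392. At an unadjusted p under 0.05 there were 13 (15.1%, against 11.7% of all genes), 3 higher and 10 lower in shATGL, and 62 of the 86 were lower at any p. Of these 13, 11 were in the lists for haem and for iron-sulfur clusters, which are the main uses of iron in mitochondria. The lists were not tested as lists, and their counts describe them beside all genes.

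Of the 12 tested genes of haem synthesis and breakdown, all 12 had a lower mean in shATGL (48.1% of all genes) and 4 passed the unadjusted threshold (33.3%, against 5.94% of all genes in that direction). The list left out the member *HMOX1*, which also breaks down haem and went the other way, at 0.09, or 0.15 after the correction. The median log2 fold change of the list was -0.18, and -0.15 after the correction for length and GC content, when 11 of 12 were lower. *TSPO*, a mitochondrial outer membrane protein that binds porphyrins, was at 232, 223 and 257 CPM in the controls, against 181, 175 and 216 CPM in shATGL 1, 2 and 3. *UROS*, an enzyme of porphyrin synthesis, was at 72.8, 73.9 and 81.0 CPM in the controls, against 59.7, 58.5 and 69.8 CPM in shATGL. *BLVRB*, a biliverdin reductase, was at 18.5, 18.0 and 21.8 CPM in the controls, against 15.1, 15.01 and 16.4 CPM in shATGL. All shATGL libraries, shATGL 3 included, were below all controls in each of these 3 genes. The 3 genes were named for having the smallest unadjusted p, which favours groups that do not overlap. Such groups, with shATGL lower, were found for 5 of the 12 genes and for 9.38% of all genes. The log2 fold changes of *TSPO*, *UROS* and *BLVRB* were -0.32, -0.28 and -0.33 (edgeR unadjusted p = 0.0113, 0.0152 and 0.0166, adjusted p = 0.392 for each). Their corrected values were -0.26, -0.34 and -0.25. The most abundant other genes of the list, *ALAS1* and *ALAD*, which catalyse the first steps of haem synthesis, differed by -0.03 and -0.04, or 0.05 and -0.01 after the correction.

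Of the 30 tested genes of mitochondrial iron and iron-sulfur clusters, 22 were lower at any p (73.3%, against 48.1% of all genes). The unadjusted threshold was passed by 7 (23.3%, against 11.7% of all genes), of which 6 were lower, as were 5.94% of all genes. Without shATGL 3 it was passed by 13 genes of this list and 6 of the haem list, in a fit in which 28.8% of all genes passed. *ISCA1*, a late-acting cluster assembly factor, was at 35.4, 36.9 and 35.4 CPM in the controls, against 31.5, 29.02 and 29.2 CPM in shATGL, with a log2 fold change of -0.26 (edgeR adjusted p = 0.392). *CIAO2A*, of the cytosolic assembly machinery, was at 93.2, 90.5 and 97.0 CPM in the controls, against 75.5, 80.1 and 84.2 CPM in shATGL, a log2 fold change of -0.23 (edgeR adjusted p = 0.392). *NDOR1*, the reductase that feeds electrons to the same machinery, went the other way, at 99.4, 100.2 and 96.7 CPM in the controls, against 128, 117 and 109 CPM in shATGL, with a log2 fold change of 0.25 (edgeR adjusted p = 0.392). The groups of these 3 genes did not overlap, but the genes were named for having the smallest unadjusted p, which favours that. Of the 30 genes, 2 had groups apart with shATGL higher and 5 with shATGL lower, against 7.93% and 9.38% of all genes. The corrected values of *ISCA1*, *CIAO2A* and *NDOR1* were -0.30, -0.23 and 0.27. The most abundant genes of the list included the chaperone *HSPA9* and the transporter *ABCB10*, which differed by 0.01 and -0.10, or -0.10 and -0.09 after the correction.

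Among uptake and transport genes, 12 of 17 were tested, 4 higher and 8 lower (66.7%, against 48.1% of all genes). The 1 gene past the unadjusted threshold (8.33%, against 11.7%) was *TF*, which encodes transferrin itself and was named after its values were seen. It had 0, 7 and 4 counts in the controls, against 34, 14 and 17 in shATGL 1, 2 and 3, under 1 CPM in every library, and its log2 fold change of 2.42 had an interval of 0.22 to 4.62. In the corrected fit no gene of this list passed. The most abundant genes were *SNX3*, which sorts endosomal cargo (-0.18, corrected -0.12), and the metal carriers *SLC39A14* (-0.09, corrected -0.12) and *SLC39A8* (-0.02, corrected -0.08). Of the 10 genes for release and its control, 4 were tested and none passed the unadjusted threshold, with log2 fold changes of 0.05 for the haem exporter *FLVCR1*, 0.30 for *RNF217* and -0.29 for *FLVCR2*. The corrected values were -0.02, 0.05 and -0.25, so the sign of *FLVCR1* turned. Among the 14 genes that control iron levels in the cell, 8 were higher and 6 lower (42.9%). *HERC2*, also named after its values were seen, passed the unadjusted threshold (7.14% of the list) at 0.18, and was at 0.03 after the correction, when no gene of the list passed as higher and 2 passed as lower. The most abundant were *PCBP2* (-0.09, corrected -0.13), *SKP1* (-0.11, corrected -0.30) and *KEAP1* (-0.05, corrected -0.04). The list of 14 targets of NRF2 left out all members. None of these 14, 2 higher and 12 lower (85.7%), passed the unadjusted threshold. *TALDO1*, *PGD* and *TKT* differed by -0.23, -0.17 and -0.07, with corrected values of -0.18, -0.11 and -0.15.

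Outside the 10 members, other genes known to carry an iron-responsive element were also looked up. *ALAS2*, the erythroid first enzyme of haem synthesis, had at most 3 counts in a library and was not tested. The log2 fold changes were -0.07 (SE 0.14) for *EPAS1*, 0.12 (SE 0.11) for *CDC14A* and 0.33 (SE 0.26) for *CDC42BPA*, each with an interval that includes 0, and -0.09, 0.03 and 0.14 after the correction. *CDC42BPA* ranged from 21.1 CPM in shATGL 3 to 45.1 CPM in shATGL 2.

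Promoters of 8 of the 10 members were taken from RefSeq (GRCh38.p14), as 13 short windows around the start. The antioxidant response element TGACNNNGC, searched on both strands, was in 2 of these 13 windows, of *PCBP1* and *NCOA4*, and in 13.3% of all 35116 promoters. The E-box CACGTG was in none of the 13 windows and in 7.26% of all promoters. The hypoxia core ACGTG, whose letters also lie within the E-box, was in 2 of the 13, of *TFRC* and *FTL*, and in 21.4% of all.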

How the data were processed

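Total RNA of MV4-11 cells was sequenced in 3 shNC and 3 shATGL libraries, grouped by their labels. Reads were cleaned with FASTP by the authors, who deposited raw counts per Ensembl gene. The aligner, counter, strand setting and annotation are not given in the sources used here. The submitters' processing notes name the mouse build mm10, while the identifiers are human. The study's methods give TRIzol for the RNA, and the labels also give a column kit, an amplification of cDNA and a transposase-based kit, with no molecular identifiers named. Reads amplified by PCR are not independent molecules.

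Of the 61806 identifiers, 61804 were named and 58254 placed in GENCODE 29 (GRCh38), which gave positions and exonic lengths. Counts were tested in R 4.3.3 with edgeR 4.0.16 (filterByExpr with minimum count 10 and minimum total count 15, TMM, quasi-likelihood test, Benjamini-Hochberg adjustment over 19149 genes). The study's methods name DESeq2, which was run as an alternative (1.42.0), as was voom with sample quality weights (limma 3.58.1). A gene was called at an adjusted p under 0.05 if it also changed at least 2-fold. CPM were computed here with TMM library sizes. Single values were tested by exact permutation over the 20 relabellings, and correlations over the 720 pairings. Length and GC content were corrected with offsets from natural splines (4 degrees of freedom each). The scripts were tested on simulated data.

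The members, the gene and marker lists and the tests were chosen with earlier results of these data known. Named genes were the members, up to 6 genes of the wider lists with the smallest unadjusted p under 0.05, the 3 of each list with the highest mean CPM, known carriers of an iron-responsive element, the 3 genes most like *FTL* and *TFRC*, and *PNPLA2*. A further gene named by that rule is not reported here. Besides the marker lists in the text, T cell, B cell and epithelial or fibroblast markers summed to 0 to 0.108, 3.55 to 5.95 and 0 to 0.252 CPM per library. The alternatives were other scalings, tests and filters, a replicate block, the omission of each library, the correction above, pseudogene sums, and, chosen after seeing the data, the principal transcript length and those for the ratio of *FTL* to *FTH1*.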

Additional observations from a re-analysis of the deposited data

How the results depend on the processing

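The direction of *FTL*, *NCOA4*, *TFRC*, *SLC11A2*, *IREB2* and *PCBP1* was the same under every alternative run, with *FTL* from -0.39 to -0.15 and *TFRC* from 0.0002 to 0.29 on the log2 scale. *FTH1* reversed to 0.0032 after the correction for length and GC content. With 1 library left out, *SLC40A1* ranged from -0.13 to 0.05 (0.0521 without shNC 1, 0.0102 without shNC 2, 0.0119 without shATGL 1 and 0.0275 without shATGL 2), *HMOX1* from -0.04 (-0.0381 without shATGL 1) to 0.17, and *STEAP3* from -0.15 to 0.005 (without shATGL 2). *FTL* (-0.33, adjusted p = 0.0292) and *PCBP1* (-0.18, adjusted p = 0.0485) passed the adjusted threshold with limma voom and sample quality weights, which 2076 of 19149 genes passed. Without shATGL 3, *FTL* (-0.39), *TFRC* (0.29), *IREB2* (0.48) and *PCBP1* (-0.21) passed it in edgeR, as did 2795 of 19954 genes, with leave-one-out ranges of -0.39 to -0.19, 0.059 to 0.29, 0.17 to 0.48 and -0.21 to -0.0713. The cause was not tested. With pseudogene counts summed in, *FTL* and *FTH1* were still not called, and no sum could be formed for *PCBP1*, which had no such rows.

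The number of called genes was 1, and 3 with upper-quartile scaling, 24 with DESeq2, 266 with voom, 0 with the replicate number as a block and 0 to 319 with 1 library left out (319 without shATGL 3, 2 without shNC 1, 0 without shNC 3 or shATGL 1). The number of members with an unadjusted p under 0.05 was 1, and 0 with upper-quartile scaling, 5 with voom, 2 with the block (*FTL* and *IREB2*), 2 after the length and GC correction and 0 to 7 with 1 library left out, with 7 without shATGL 3 and 0 without shNC 2, shNC 3, shATGL 1 or shATGL 2. Of all genes, 11.7% passed that threshold, and 10.2% with upper-quartile scaling, 30.6% with voom, 17.3% with the block, 12.5% after the correction, 28.8% without shATGL 3, and 5.17% to 9.27% without each of the others, against which the counts of members and of the lists are to be read. For the lists, the counts past that threshold with voom were 3 for uptake, 5 for control, 13 for iron-sulfur clusters and 5 for NRF2 targets. With the block they were 1 for release, 3 for control and 2 for NRF2 targets, and after the length and GC correction 0 for uptake, 2 for control and 2 for NRF2 targets. Uptake had 2 with DESeq2's size factors and with no filter, and 0 with at least 10 counts in every library, and control had 0 with upper-quartile scaling. With 1 library left out, the lists ranged from 0 to 3 for uptake, 0 to 5 for control, 3 to 13 for iron-sulfur clusters, 1 to 6 for haem and 0 to 5 for NRF2 targets. The highest of each came without shATGL 3, and haem fell to 1 without shNC 3 or shATGL 1.

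The correlation of ferritin with *TFRC* was -0.620 after the correction, -0.453 without the 2 libraries farthest from the median, and -0.9985 to -0.825 with 1 library left out, when p passed the threshold only without shNC 3 or shATGL 3. The log2 ratio of ferritin to *TFRC* stayed below 0 under each alternative, from -0.67 to -0.14, and the ratio of *FTL* to *FTH1* per kilobase moved to 27.5 with principal transcript lengths. Whether the replicate numbers pair the libraries is not settled. The correlations of deviations of same-numbered libraries over 13935 genes were 0.0599, 0.233 and 0.343, and those of different numbers -0.291 to 0.192. The labels name no shared batch, and the block was used as an alternative only. With the block, *FTL* was at -0.28 (SE 0.03, edgeR unadjusted p = 1.24e-04, adjusted p = 0.0897). In that fit 17.3% of all genes had an unadjusted p under 0.05. Counts per library limit the precision of *HMOX1* most.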
